A study of Mus musculus with 2 samples.

Results

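The genes described here are 10 of the 28009 genes listed for IL-10-producing CD4+ T cells of mouse spleen and small intestine. They were chosen by name, with earlier results of these data known. They are the S100 genes S100a4, S100a6, S100a10, S100a11 and S100a13, the galectin genes Lgals1 and Lgals3, the annexin genes Anxa1 and Anxa2, and Vim. All 10 were listed in both tissues, and 9 of them were measured with enough counts for comparison, Anxa1 being the exception. IL-10 eGFP+ CD4+ T cells, Foxp3+ cells included, were sorted from mice that carried both an IL-10 eGFP and a Foxp3 mRFP reporter and had received 15 µg of the anti-CD3 antibody clone 2C11 intraperitoneally on day 0 and day 2. The mice were 8 to 16 weeks old, and cells were taken 4 h after the later injection. Both groups shared the reporters and the treatment, so no group without anti-CD3 was compared, and the number of mice pooled for a library was not given in the sources used here.

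S100 proteins are small calcium-binding proteins that work by gripping other proteins, among them annexins and components of the cell's contractile skeleton. Galectins bind sugar chains on glycoproteins and are both kept inside the cell and released from it, and annexins attach to membranes when calcium is present. In T cells, several of these genes, together with the intermediate filament gene Vim, are known as genes of antigen-experienced rather than naive cells. S100a10 forms a complex with annexin A2, S100a11 is a known partner of annexin A1, and galectin-1 binds the T cell receptors CD7 and CD43, among others.

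There was 1 library per tissue. After a quality filter and removal of cells placed in G2/M, 1277 of 1474 barcodes of the small intestine (median 3696 unique molecular identifiers, UMIs, per cell) and 1468 of 1738 barcodes of the spleen (median 5398) were kept, and no barcode was shared. A level is the UMIs of a gene summed over cells in counts per 1e+06 UMIs of those cells (CPM), with an exact Poisson 95% interval. A ratio of levels has an exact binomial 95% interval. Cells of 1 library are not replicates, so no difference was tested, and all intervals cover counting error only. Shares of cells with a UMI were taken after each cell was thinned at random to 2094 UMIs, which left 1149 and 1438 cells. The sort held no class of cells known to lack these genes, so the share that free RNA alone would give could not be set. T cell marker genes had a summed level of 4550 CPM in the small intestine and 3663 CPM in the spleen. Neutrophil genes summed to 0.199 and 2.40 CPM, with S100a8 and S100a9 at 1 and 0 UMIs in the small intestine and 2 and 1 UMIs in the spleen. The monocyte and macrophage list summed to 64.4 CPM in the small intestine, nearly all of it Cd68 (63.2 CPM), with Lyz2, Adgre1 and C1qb at 0, and to 25.1 CPM in the spleen. B cell genes were at 14.1 and 6.45 CPM, stromal and endothelial genes at 14.3 and 26.0 CPM (nearly all Pecam1), erythroid genes at 0 and 0.328 CPM and CD8 genes at 353 and 13.8 CPM. Regulatory T cell genes summed to 1523 and 1880 CPM, most of it Ctla4 (1410 and 1449 CPM). The other genes of that list were lower in the small intestine, Foxp3 at 7.55 against 51.1 CPM, Ikzf2 at 81.9 against 224 CPM and Il2ra at 23.6 against 156 CPM. The part of such cells in the results below was not tested. With cells that had 2 or more marker genes of another cell type left out (7 and 21 cells), the count of members past 1.5-fold between tissues was 5. Free RNA and cells with fewer such marker genes stayed in under that setting.

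All 5 S100 members lie on chromosome 3 (GRCm38 coordinates), where 13 of the S100 genes listed for this report were found. S100a13 (chr3:90514435-90524581), S100a4 (chr3:90603771-90606045) and S100a6 (chr3:90612882-90624181) form a first block, with 6.84 kb between the end of S100a4 and the start of S100a6. S100a11 (chr3:93520488-93526287) and S100a10 (chr3:93555080-93564643) follow 2908 kb further on, and all are on the plus strand. S100a4 overlaps the gene model Gm42674 on its own strand. No UMI of Gm42674 was found in either library, but whether it was among the genes counted was not checked. The other members lie apart, Lgals1 at chr15:78926725-78930465, Lgals3 at chr14:47367751-47386160, Anxa2 at chr9:69453620-69491795, Vim at chr2:13573927-13582826 and Anxa1 at chr19:20373428-20390944. Levels here are counts over whole genes, so no exon or transcript was distinguished.

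Of the S100 members, S100a4 and S100a6 differed most between the tissues and S100a11 hardly at all, and the promoters of these 3 genes are shown for that reason. Each runs from 250 bases before to 50 bases after the start that RefSeq gives on GRCm38.p6, on the plus strand, at chr3:90603520-90603819, chr3:90612644-90612943 and chr3:93520246-93520545. Capitals mark every match, on either strand, to TGANTCA (the AP-1 motif), TGTGGT (the Runx motif), GGGCGG (the GC box) or TATAAA. The last of these was added after the sequences had been seen.
S100a4: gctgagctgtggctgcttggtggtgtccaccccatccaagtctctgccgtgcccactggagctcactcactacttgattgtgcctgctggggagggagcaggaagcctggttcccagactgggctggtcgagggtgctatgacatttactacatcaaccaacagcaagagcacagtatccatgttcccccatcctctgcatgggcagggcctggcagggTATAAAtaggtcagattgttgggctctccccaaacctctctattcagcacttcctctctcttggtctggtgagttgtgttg
S100a6: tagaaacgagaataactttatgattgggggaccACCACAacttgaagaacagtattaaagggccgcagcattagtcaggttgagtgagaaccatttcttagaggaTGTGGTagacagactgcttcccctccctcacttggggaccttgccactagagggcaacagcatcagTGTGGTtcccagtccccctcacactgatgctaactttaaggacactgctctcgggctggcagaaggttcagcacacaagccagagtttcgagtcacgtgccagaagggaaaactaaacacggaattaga
S100a11: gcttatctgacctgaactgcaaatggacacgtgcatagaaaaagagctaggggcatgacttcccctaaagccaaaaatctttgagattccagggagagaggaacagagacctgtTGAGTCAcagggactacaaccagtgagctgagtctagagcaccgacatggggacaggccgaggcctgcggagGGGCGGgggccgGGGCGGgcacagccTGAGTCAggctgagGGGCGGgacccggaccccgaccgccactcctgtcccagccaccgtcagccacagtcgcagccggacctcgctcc
The S100a4 window held a single TATAAA and none of the other motifs. The S100a6 window held 3 Runx matches, and the S100a11 window held 2 AP-1 and 3 GC box matches. Among the 32851 RefSeq promoters of this length, 7.81% held an AP-1 match, 16.8% a Runx match, 35.7% a GC box and 13.6% a TATAAA. Promoters were found for 8 of the 10 members. Anxa2 held 1 AP-1, 3 GC box and 1 TATAAA match, and Anxa1 and Vim each held 1 TATAAA, so TATAAA was not particular to S100a4. Lgals3 held 2 GC boxes and S100a13 held none of the motifs. A match describes letters in a window and is not a binding site.

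The tissue comparison asks which of these genes differ between IL-10-producing cells of gut and spleen. S100a4, S100a6, S100a10, Anxa2 and Lgals1 were lower in the small intestine by more than 1.5-fold, and no member was higher by that much. This is 5 of the 9 members with at least 50 UMIs, beside 24.1% of all 9032 genes with that many UMIs that were lower and 21.4% that were higher. The median log2 ratio (small intestine over spleen) of the 9 members was -0.93, against -0.02 over all genes. Of the members, S100a4 and S100a6 differed most, and they lie near each other with S100a5 between them, a gene with 0 UMIs in the small intestine and 13 UMIs in the spleen.

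S100a4, a protein that binds non-muscle myosin, stood at 27.0 CPM (22.7 to 32.0) in the small intestine and 393 CPM (380 to 406) in the spleen. The spleen was 14.5-fold higher (12.2 to 17.4), and the ratio ranked 39 from the lowest of 9032 genes. At equal depth 2.61% of intestinal cells (1.77 to 3.71) and 27.7% of splenic cells (25.4 to 30.1) had an S100a4 UMI. The intestinal level rested on few cells. Of its 136 UMIs, spread over 40 cells, 98 lay in the 10 highest cells and 43 in a single cell, which also held 169 of the 1613 intestinal S100a6 UMIs. That cell had 9755 UMIs in all, 39 of T cell marker genes and 1 of markers of other cell types. Without it the intestinal S100a4 level was 18.5 CPM (14.9 to 22.7).

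S100a6, whose protein binds the annexins A2 and A11 among other partners, stood at 321 CPM (305 to 337) in the small intestine and 1571 CPM (1546 to 1597) in the spleen. The spleen was 4.90-fold higher (4.66 to 5.16), with a UMI in 61.4% of splenic and 24.4% of intestinal cells at equal depth. In the small intestine 75.1% of the thinned S100a6 UMIs lay in the top 10% of cells, against 43.8% in the spleen. S100a6 thus differed in the share of cells as well as in the summed level.

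S100a10 and Anxa2, which encode the partners of a single protein complex, had nearly the same ratio over all cells. S100a10 stood at 423 CPM (405 to 441) in the small intestine and 1032 CPM (1012 to 1053) in the spleen, 2.44-fold higher there (2.33 to 2.56). Anxa2 stood at 74.5 CPM (67.2 to 82.5) and 183 CPM (174 to 192), 2.45-fold higher in the spleen (2.19 to 2.75). S100a10 was found in 52.0% of intestinal and 72.0% of splenic cells, and Anxa2 in 11.9% and 19.5%. The 2 ratios were less alike in the Ccl5-high cells with no Foxp3 UMI described below, at 2.66-fold (2.47 to 2.87) and 3.63-fold (3.09 to 4.26).

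The galectins went separate ways. Lgals1 stood at 1247 CPM (1217 to 1279) in the small intestine and 2384 CPM (2352 to 2416) in the spleen, 1.91-fold higher there (1.86 to 1.97). Its share of cells was nearly the same, 78.9% (76.4 to 81.2) and 80.0% (77.9 to 82.1), so the difference lay in UMIs per cell. Lgals3, a galectin with a tail that lets it form clusters, stood at 228 CPM (215 to 241) and 231 CPM (221 to 241), a ratio of spleen to small intestine of 1.01 (0.944 to 1.09). Of its 1145 intestinal UMIs, 402 lay in 121 cells with both a Cd8a and a Cd8b1 UMI. The near equality of the tissues thus rests in part on those cells.

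S100a11, S100a13 and Vim stayed within 1.5-fold. S100a11 stood at 963 CPM (936 to 991) in the small intestine and 948 CPM (929 to 969) in the spleen, yet was found in 79.1% of intestinal and 69.3% of splenic cells. S100a13, known from the release of growth factors that lack a signal peptide, stood at 356 CPM (339 to 372) and 322 CPM (310 to 334). Vim stood at 254 CPM (240 to 268) and 353 CPM (341 to 366), 1.39-fold higher in the spleen (1.30 to 1.49). Vim passed 1.5-fold when ribosomal protein and mitochondrial genes were left out of the totals (log2 ratio -0.63), a scaling that moved the median of all genes to -0.17.

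Anxa1, the annexin known as an inducible inhibitor of inflammation, had 6 UMIs in 3 intestinal cells and 20 UMIs in 17 splenic cells. These are 1.19 CPM (0.438 to 2.60) and 2.19 CPM (1.33 to 3.38), with overlapping intervals, and too few counts for a ratio. Its receptor genes Fpr1 and Fpr2 had 0 UMIs in both libraries.

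**Figure D1:**
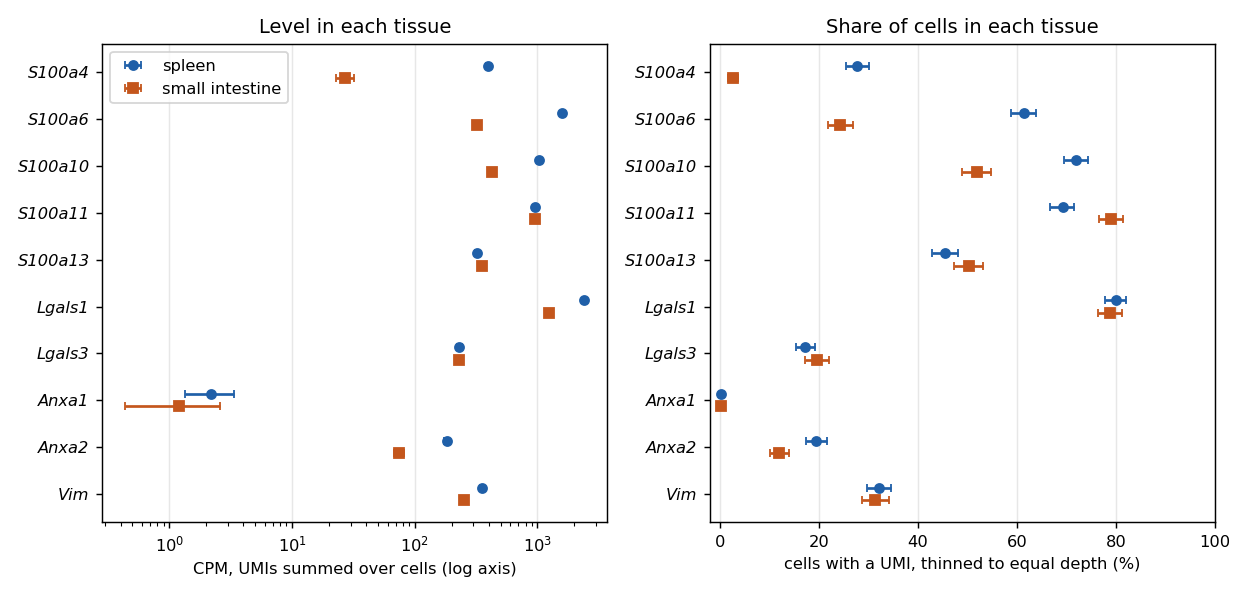
Left, level of each member in CPM (log axis) in spleen (circles) and small intestine (squares), with exact Poisson 95% intervals; right, share of cells with a UMI after thinning to 2094 UMIs, with exact binomial 95% intervals. S100a4 is the farthest apart in level (27.0 against 393 CPM), while Lgals3 and S100a11 nearly coincide in level.

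The rest of these families did not follow the same pattern. Of 11 other S100 genes only S100a1 reached 50 UMIs over both libraries, at 5.76 CPM in the small intestine and 6.45 CPM in the spleen, although it lies 42 bases from S100a13, on the opposite strand. Of 8 other galectin genes, 7 were listed and 5 had 50 UMIs. Lgals4, a galectin best known from gut epithelium, was higher in the small intestine (29.8 against 1.53 CPM), as was Lgals8 (37.6 against 19.1 CPM), and Lgals9, whose protein binds TIM-3, was at 57.2 and 61.3 CPM. The epithelial marker list summed to 18.7 CPM in the small intestine and 32.3 CPM in the spleen. Nearly all of the splenic sum was Epcam (31.6 CPM, against 7.75 CPM in the small intestine). Krt18 was at 8.54 CPM in the small intestine and 0.546 CPM in the spleen. Krt8, Fabp2 and Reg3g were also higher in the small intestine, from few UMIs. Vil1 had 1 UMI, in the spleen, and Krt20 had 0 in both. The part of epithelial RNA in the Lgals4 difference was not tested. Of 10 other annexins, 5 had 50 UMIs. Anxa6 (119 against 287 CPM) and Anxa5 (64.4 against 96.7 CPM) were lower in the small intestine and Anxa4 (14.7 against 7.76 CPM) was higher.

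Among partner and receptor genes, 3 of 8 with enough UMIs were higher in the small intestine and none was lower. Over all 9032 genes 21.4% were higher and 24.1% lower, and these shares stand beside the count of each list here. Cd7, a receptor for galectin-1, was at 546 CPM there and 21.0 CPM in the spleen. Havcr2, the gene for TIM-3, was at 112 and 37.2 CPM, and Lag3 at 2420 and 1147 CPM. Ahnak, a scaffold that binds the S100a10 complex, was at 52.9 and 50.8 CPM, Spn, which encodes CD43, at 96.8 and 93.3 CPM, and Ptprc, which encodes CD45, at 693 and 696 CPM. Of 9 genes listed as going with effector memory cells, 5 were lower in the small intestine, with a median log2 ratio of -1.09, among them Crip1 (733 against 1811 CPM) and Tagln2 (94.2 against 287 CPM). All 7 naive-associated genes were lower as well, with a median log2 ratio of -3.73, so the genes that were low in the gut came from both lists. The 5 cycling genes were also lower (median log2 ratio -1.85).

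To compare tissues among cells above a shared Ccl5 cut, cells were called Ccl5-high from 10 Ccl5 UMIs per 10000 UMIs of the cell. Ccl5 encodes a chemokine of effector T cells, and no member was used by the rule. This held for 1177 intestinal and 224 splenic cells. Their Ccl5 levels were not alike, with a median of 536 UMIs per 10000 in the intestinal and 104 in the splenic cells. From 200 per 10000 upward there were 969 intestinal and 76 splenic cells. The cut is a range and not a type of cell. In the small intestine 125 cells lay within 2-fold of it and 94.0% of the cells below it still had a Ccl5 UMI, against 34.6% in the spleen. Of Ccl5-high cells with no Foxp3 UMI, 1161 were intestinal and 204 splenic. Between these, 6 of 9 members were lower in the small intestine by 1.5-fold and none was higher, beside 18.1% and 19.8% of 7110 genes.

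The S100a4 and S100a6 differences were larger between these groups, which were unlike in Ccl5 level, than over all cells. S100a4 was at 19.3 CPM (15.5 to 23.8) in the intestinal and 618 CPM (573 to 666) in the splenic cells, 32.0-fold higher in the spleen (25.6 to 40.5), rank 3 from the lowest. Of its 87 intestinal UMIs here, 43 lay in the single cell named above, so the size of this ratio depends on that cell. S100a6 was at 277 and 2258 CPM, 8.16-fold higher in the spleen (7.62 to 8.74). Anxa2 was 3.63-fold (3.09 to 4.26), Lgals1 2.68-fold (2.56 to 2.79), S100a10 2.66-fold (2.47 to 2.87) and Lgals3 1.65-fold (1.47 to 1.84) higher in the splenic cells. S100a11 and S100a13 stayed within 1.5-fold. Whether a tissue difference changes with state was not tested.

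Among Ccl5-low cells with no Foxp3 UMI (88 intestinal and 984 splenic), 5 members were lower in the small intestine and 1 was higher, beside 20% and 22.3% of 7269 genes. S100a4 was again lower in the gut (37.4 against 334 CPM), as were S100a6 (307 against 1386 CPM), Anxa2 and S100a10. Lgals3 had only 8 UMIs in the intestinal cells (21.4 CPM, 9.22 to 42.1), against 229 CPM in the spleen. Vim was the member that was higher in the small intestine, at 486 CPM (418 to 562) against 271 CPM (257 to 284). So Lgals3, level between the tissues over all cells, was lower in the gut within both states, with most intestinal and few splenic cells being Ccl5-high.

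**Figure D2:**
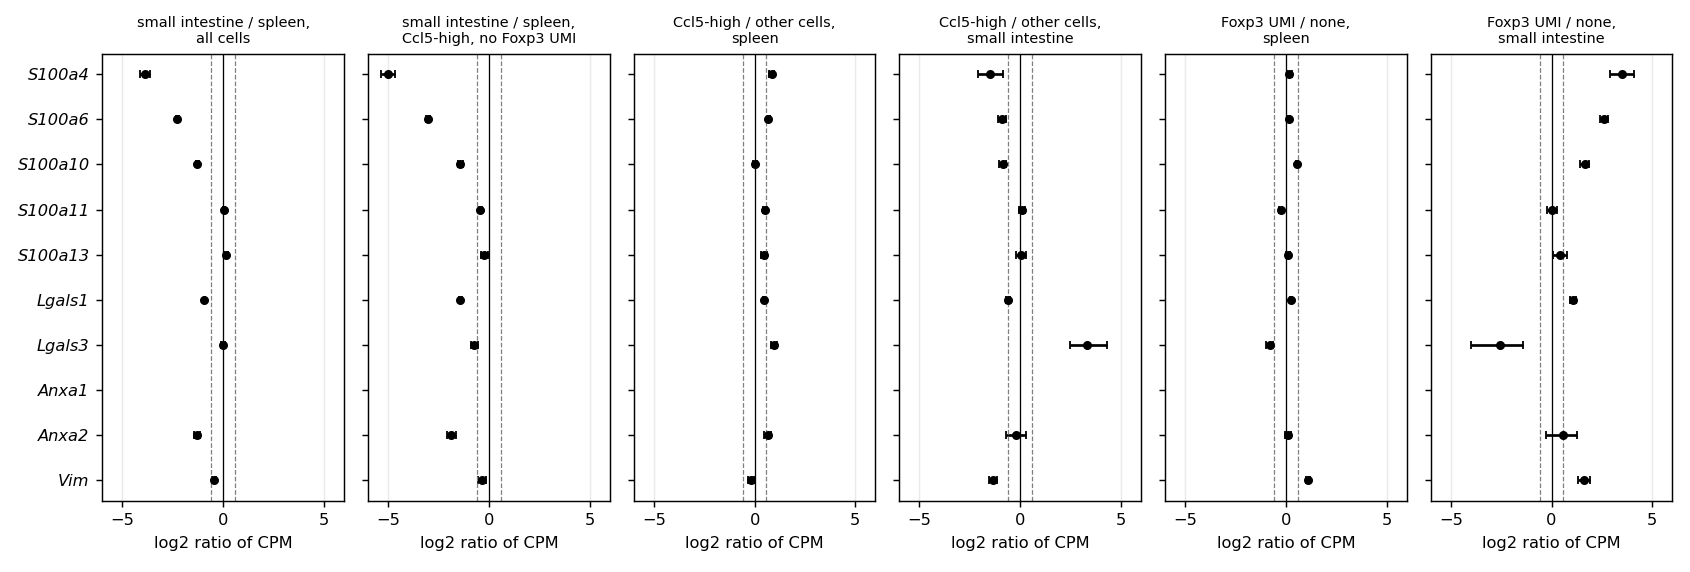
Log2 ratio of CPM for each member in 6 comparisons (titles give numerator / denominator), with exact 95% intervals for counting error; dashed lines mark 1.5-fold, and Anxa1 has too few UMIs for a point. S100a4 runs from -5.00 between tissues in Ccl5-high cells to 3.50 for intestinal cells with a Foxp3 UMI.

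Within the spleen, Ccl5-high cells had more of most members. Lgals3 (397 against 205 CPM), S100a4 (638 against 354 CPM), S100a6 (2340 against 1451 CPM) and Anxa2 (266 against 170 CPM) were higher by 1.5-fold. This is 4 of 9, with none lower, beside 8% of 8117 genes higher and 10.3% lower. Their ratios were 1.94 (1.75 to 2.15), 1.80 (1.66 to 1.95), 1.61 (1.55 to 1.68) and 1.57 (1.39 to 1.77). S100a11, Lgals1 and S100a13 were higher by 1.43, 1.38 and 1.37-fold, while S100a10 (1.02-fold) and Vim (0.889-fold) were not higher. The S100a6 share of cells at equal depth was 83.7% in the 215 thinned Ccl5-high cells and 57.5% in the other 1223. With a cut of 40 in place of 10 UMIs per 10000, chosen after the data were seen, 2 members passed 1.5-fold. The share over all genes was not taken at that cut.

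The splenic levels did not climb steadily with Ccl5. S100a4 was at 333 CPM in the 814 cells with no Ccl5 UMI, at 387 CPM above 0 to 10 per 10000, at 771 CPM from 10 to 40, at 702 CPM from 40 to 200 and at 419 CPM (356 to 490) in the 76 cells from 200. S100a6, Lgals1 and Lgals3 likewise had their highest splenic level from 10 to 40 (2686, 3427 and 458 CPM) and a lower one from 200 (1918, 2721 and 316 CPM). Vim was at 338 to 417 CPM up to 200 and at 175 CPM (135 to 223) above. These ranges were also set after the data were seen.

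Within the small intestine the order was different. Of 9 members, 5 were lower in the 1177 Ccl5-high cells than in the other 100 (S100a4, Vim, S100a6, S100a10 and Lgals1) and 1 was higher (Lgals3), beside 18.7% of 6870 genes lower and 12.9% higher. The median log2 ratio of all genes here was -0.14. Vim was at 224 CPM (210 to 238) in Ccl5-high and 565 CPM (498 to 640) in the other cells, 2.53-fold higher in the latter (2.19 to 2.91). S100a10 was at 394 and 719 CPM, 1.82-fold higher (1.61 to 2.06). S100a4 had 107 UMIs (23.3 CPM) in Ccl5-high cells and 29 UMIs (65.3 CPM) in the others, a log2 ratio of -1.49 (-2.09 to -0.84), or -2.22 without the cell that held 43 of them. Among cells with no Foxp3 UMI, S100a4 had 87 UMIs (19.3 CPM) in Ccl5-high cells and 14 UMIs (37.4 CPM) in the others. Lgals1 was at 1192 and 1825 CPM, 1.53-fold higher in the other cells (1.42 to 1.65). Its log2 ratio was within 1.5-fold, at -0.48, once ratios were centred on the median of all genes, and at -0.45 without cells with a Foxp3 UMI.

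S100a6 did not keep its direction here. It was at 298 CPM in Ccl5-high and 556 CPM in the other intestinal cells, a log2 ratio of -0.90. With a cut of 5 per 10000, which left 32 cells below it, the log2 ratio was 1.39, and without cells with a Foxp3 UMI it was -0.15. At equal depth its share of cells was 24.2% in Ccl5-high and 25.8% in the other cells.

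Lgals3 had the largest difference of any member between intestinal states. It was at 247 CPM (233 to 262) in Ccl5-high cells and 24.8 CPM (12.4 to 44.3, from 11 UMIs) in the others, 9.97-fold higher (5.55 to 20.04), rank 21 from the highest. Its level went from 26.2 CPM at up to 10 Ccl5 UMIs per 10000 to 52.1, 138 and 279 CPM in the next ranges. Even so, only 20.8% of the thinned Ccl5-high cells had an Lgals3 UMI, against 4.49% of the 89 other cells (1.24 to 11.1).

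**Figure D3:**
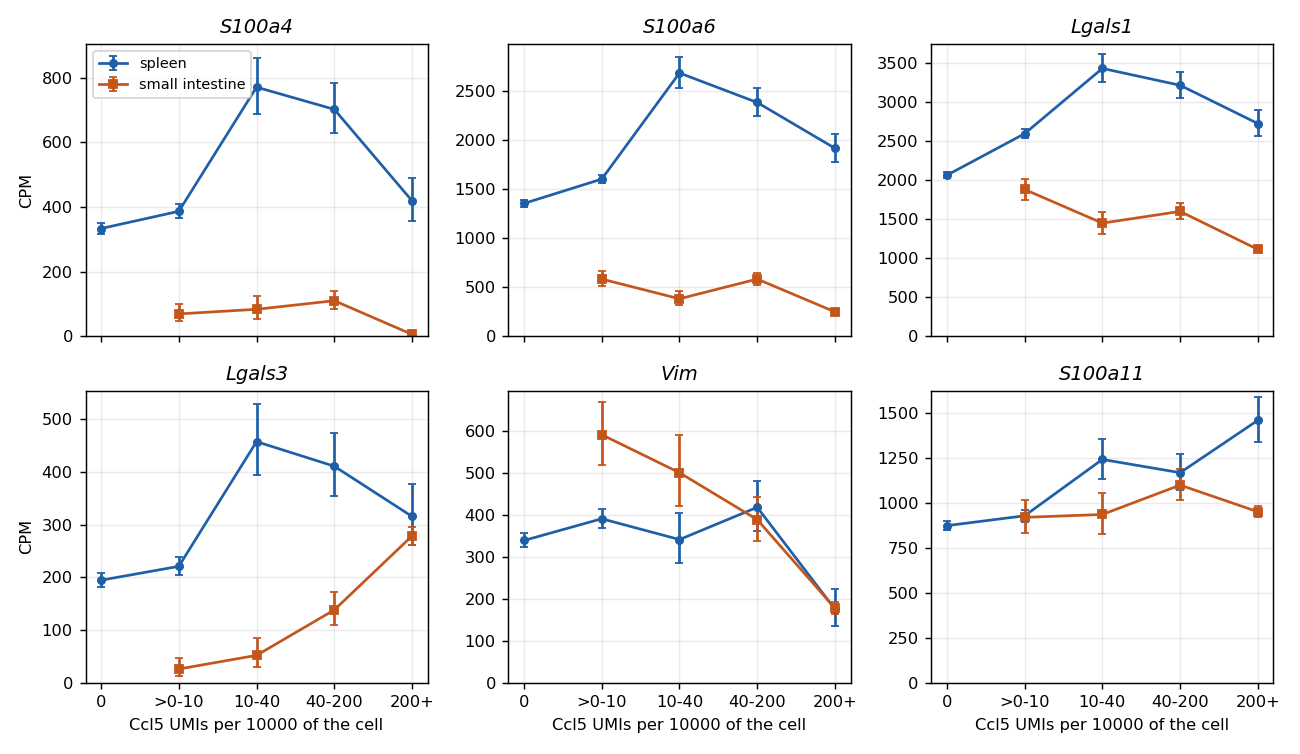
CPM of 6 members (linear axes from 0, with exact Poisson 95% intervals) over ranges of Ccl5 UMIs per 10000 UMIs of the cell, in spleen (circles) and small intestine (squares); the 6 intestinal cells with no Ccl5 UMI are left out. Intestinal Lgals3 goes from 26.2 to 279 CPM and intestinal Vim from 590 to 177 CPM, while splenic S100a4 and S100a6 are highest between 10 and 40.

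In the range of 40 to 200 the intestinal S100a4 and S100a6 levels, 110 and 583 CPM, again rested on the single cell named above, and were 34.3 and 289 CPM in the other 128 cells of the range. In the 969 cells from 200 per 10000, S100a4 had 21 UMIs, or 5.62 CPM (3.48 to 8.59).

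Intestinal Lgals3 went with the CD8 genes. In the 121 Ccl5-high cells with both a Cd8a and a Cd8b1 UMI, Lgals3 was at 621 CPM (562 to 685) and S100a6 at 553 CPM (497 to 614). Ccl5-high cells with a Cd7 UMI and no CD8 UMI had 194 CPM (173 to 217) of Lgals3 and 334 CPM (306 to 364) of S100a6, and those with neither had 175 CPM (157 to 193) and 197 CPM (179 to 217). Of the 519 S100a6 UMIs in the cells with a Cd7 UMI and no CD8 UMI, 169 lay in the single cell named above. The S100a6 level of that class thus leaned on this cell. S100a4 had 2 UMIs in the 121 cells, so the high S100a6 there was not joined by S100a4. These 3 classes were set after the data were seen. Without any cell that had a Cd8a or Cd8b1 UMI (204 cells), the intestinal Lgals3 difference between Ccl5 states remained at a log2 ratio of 2.86.

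Cells with a Foxp3 UMI were compared with cells with none to ask how these genes stand in Foxp3+ cells, the regulatory lineage. A cell with no UMI may still express Foxp3, and cells with a UMI were deeper (median 7666 against 5048 UMIs in the spleen and 4709 against 3687 in the small intestine). In the spleen, 280 cells had a Foxp3 UMI and only 2 of 9 members passed 1.5-fold. Vim was higher, at 591 CPM (560 to 623) against 272 CPM (260 to 285), or 2.17-fold (2.03 to 2.33), beside 6.36% of 8117 genes higher. Lgals3 was lower, at 148 CPM (133 to 165) against 259 CPM (247 to 271), beside 7.39% lower. S100a10 was just under 1.5-fold higher, at 1359 against 921 CPM (1.48-fold, 1.41 to 1.54), while S100a4 and S100a6 were higher by 1.13-fold (1.05 to 1.21) and 1.11-fold (1.07 to 1.16). Among splenic Ccl5-low cells alone, S100a10 (1.51-fold, 1.44 to 1.58) passed as well as Vim (2.17-fold) and Lgals3 (lower by 1.61-fold), beside 6.71% of 7770 genes higher and 7.05% lower.

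In the small intestine only 28 cells had a Foxp3 UMI, yet the differences were larger. S100a4, S100a6, S100a10, Vim and Lgals1 were higher and Lgals3 was lower, 6 of 9 members, beside 22.3% of 6870 genes higher and 19.5% lower. Of the 28 cells 12 were Ccl5-low, against 88 of the 1249 cells with no Foxp3 UMI. The part of Ccl5 state in these differences was not tested. S100a4 was at 234 CPM (163 to 326) against 20.7 CPM (16.8 to 25.1), 11.3-fold higher (7.48 to 16.8), rank 3 from the highest. Its 35 UMIs came from 9 of the 28 cells, with at most 9 in any of them, and without the highest cell the level was 187 CPM. Of the 101 S100a4 UMIs in intestinal cells with no Foxp3 UMI, 43 lay in the single cell named above. S100a6 was at 1681 CPM (1479 to 1902) against 279 CPM (264 to 294), 6.03-fold higher (5.25 to 6.90), with a UMI in 17 of the 28 cells, and was at 1378 CPM without its highest cell. These cells made up 2.19% of the intestinal cells and held 25.7% of the S100a4 and 15.6% of the S100a6 UMIs.

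S100a10 (1246 against 398 CPM, 3.13-fold), Vim (730 against 239 CPM, 3.05-fold) and Lgals1 (2551 against 1207 CPM, 2.11-fold) were also higher in intestinal cells with a Foxp3 UMI. Lgals3 had 6 UMIs there (40.2 CPM, 14.7 to 87.5, against 233 CPM). Side by side, the cells with a Foxp3 UMI in both tissues had overlapping intervals for S100a6 (1681 CPM in intestinal and 1702 CPM in splenic cells), S100a10 (1246 and 1359) and Lgals1 (2551 and 2710), whereas S100a4 stood at 234 and 429 CPM. Without the highest of the 28 intestinal cells for each gene, the intestinal levels in that order were 1378, 1091, 2496 and 187 CPM. The overlap for S100a6 and S100a10 thus leaned on single cells. Capg and Tagln2, of the effector memory-associated list, were also higher in the intestinal cells with a Foxp3 UMI (1333 against 192 CPM and 388 against 85.2 CPM). In all, 5 of 9 genes of that list were higher, beside 22.3% of 6870 genes. Whether the Foxp3 difference differs between the tissues was not tested.

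Cells placed in G2/M, left out above, were compared with cells placed in G1. Mki67, a proliferation gene, was at 362 CPM in intestinal and 305 CPM in splenic G2/M cells, against 9.5 and 28.7 CPM in G1. In the 180 splenic G2/M cells, Anxa2 (271 against 178 CPM) and Vim (513 against 338 CPM) were 1.52-fold higher, just past 1.5-fold, beside 11.6% of 8363 genes higher and 12.8% lower, and no other member passed. In the 62 intestinal G2/M cells S100a10 (706 against 421 CPM) and Anxa2 (113 against 74.8 CPM) were higher, and S100a6 (106 against 320 CPM), Lgals3 (118 against 230 CPM) and S100a4 (5 UMIs) were lower, beside 14% of 7052 genes higher and 17.6% lower. The interval of the S100a4 ratio, 0.146 to 1.09, included no difference.

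Co-detection asks whether the same cells carry several members. At equal depth, 22.9% of intestinal cells (20.5 to 25.4) and 44.6% of splenic cells (42.1 to 47.3) had a UMI of at least 5 of the 10 members. For at least 7 members the shares were 2.44% (1.63 to 3.50) and 17.5% (15.6 to 19.6). The shares that the levels of single members alone would give were not taken. Cells with none of the members also had a larger share in the spleen (3.06% against 1.48%), so the splenic cells were spread wider in both directions. In 5 further random thinnings the intestinal share for at least 5 members ran from 23.8% to 26.2% and the splenic share from 43.3% to 45.5%. Within the spleen the share was 59.5% (52.6 to 66.2) in Ccl5-high cells, 61.0% in cells with a Foxp3 UMI and 37.3% (34.2 to 40.4) in cells with neither. Within the small intestine it was 22.4% in Ccl5-high cells with no Foxp3 UMI and 20.5% (12.2 to 31.2) in the 78 cells with neither, and 13 of 27 cells with a Foxp3 UMI reached 5 members.

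**Figure D4:**
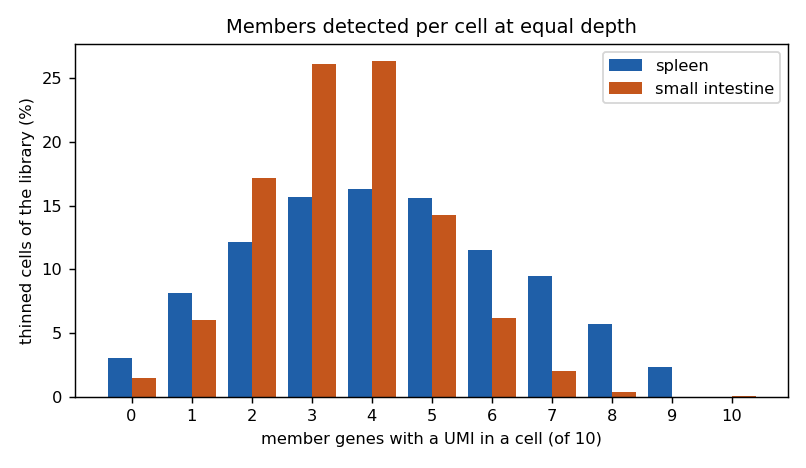
Share of thinned cells (2094 UMIs each) by the number of the 10 members with a UMI, in spleen and small intestine. Intestinal cells gather at 3 and 4 members (26.1% and 26.4%), whereas splenic cells spread wider, with 17.5% at 7 or more.

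The pairwise correlations, taken over thinned cells of a library as a description, show the same contrast. Over the 36 pairs without Anxa1, Pearson's r of log2(UMIs per 10000 + 1) had a median of 0.32 (range 0.17 to 0.56) over 1438 splenic cells and 0.08 (-0.02 to 0.28) over 1149 intestinal cells. The splenic value was the higher one in all 36 pairs, and 31 splenic pairs but only 2 intestinal pairs were above 0.2. Cells with both genes exceeded the product of the 2 shares in 33 intestinal and 36 splenic pairs, with a median ratio of 1.07 and 1.22. Pairs of other genes were not taken for comparison. The part of the lower intestinal levels in the lower r was not tested. The cells of a library share their preparation and, after thinning, their depth. The highest splenic pair was S100a6 with Lgals1 (r = 0.56). Of splenic cells with an S100a6 UMI, 90.3% had an Lgals1 UMI, against 63.8% of those without. S100a6 with S100a11 (0.46), S100a10 with Lgals1 (0.45) and S100a4 with S100a6 (0.43) followed, and S100a13 with Anxa2 was the lowest (0.17). S100a10 and Anxa2, the complex partners, were unremarkable among splenic pairs at 0.30.

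In the small intestine the highest pair was S100a4 with S100a6 (0.28), which rests on the few cells with S100a4. Of the intestinal thinned cells with S100a4, 66.7% had S100a6, against 23.2% of those without. S100a6 with Lgals1 was next (0.22), and Lgals3 was near 0 with S100a10, S100a11 and Vim. Splenic pairs were as strong within a state, with a median r of 0.33 in Ccl5-low cells with no Foxp3 UMI and 0.32 in Ccl5-high cells. The corresponding intestinal medians were 0.05 and 0.07. With another random thinning the intestinal median was 0.12 and the splenic median 0.33.

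**Figure D5:**
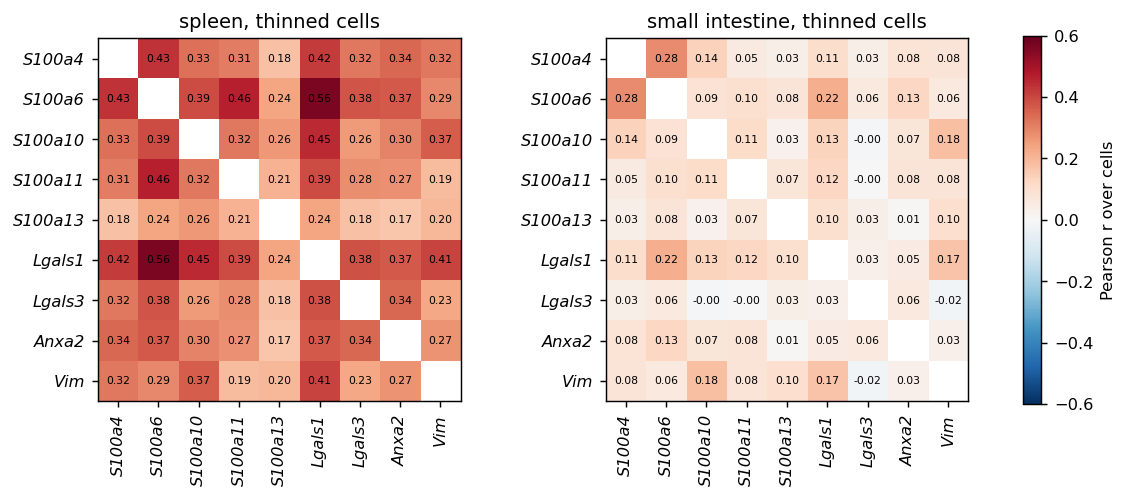
Pearson's r over thinned cells for each pair of the 9 members with enough UMIs, in spleen (left) and small intestine (right), on a shared colour scale from -0.6 to 0.6. Splenic values run from 0.17 to 0.56 with Lgals1 and S100a6 in the strongest pairs, and intestinal values from -0.02 to 0.28.

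Members differed in how unevenly their UMIs were spread over cells. The variance of thinned UMIs over cells divided by their mean, which is 1 for random counts, was 6.37 for S100a6 and 5.16 for Lgals3 in the small intestine and 6.11 for S100a6 and 5.82 for Lgals1 in the spleen. Thinned S100a6 had a mean of 0.591 UMIs per cell and a highest cell of 36 in the small intestine, against 3.05 and 27 in the spleen. Its 2 values thus stand at unlike means, and the intestinal one was not retaken without the highest cell. S100a13 was near random in both tissues (1.11 and 1.09). Lgals1 was at 2.49 in the small intestine, so it was lower in level there than in the spleen and, by this measure, more even.

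The genes whose pattern over cells was most like the summed members were ranked by the mean over both tissues of r, among 2156 genes found in at least 10% of thinned cells of each tissue. They were Tmsb4x (r = 0.36 over intestinal and 0.55 over splenic cells), Crip1 (0.22 and 0.52), Actg1 (0.17 and 0.53), AW112010, Pfn1, Actb, Lsp1, Cd52, Cotl1 and Coro1a. Tmsb4x encodes an actin-binding peptide, Actg1 and Actb encode actins, and Pfn1, Cotl1 and Coro1a encode actin-binding proteins. The lowest values belonged to Rps27, a ribosomal protein gene (-0.20 and -0.55), and Malat1, a nuclear non-coding RNA (-0.27 and -0.39). Thinned cells have a fixed total, so a gene of high level can only gain where others lose. Of single members, splenic S100a4 and Lgals3 had Cxcr6, a chemokine receptor gene of effector cells, among their 3 most like genes (0.37 and 0.35). Intestinal Lgals3 had Cd8b1 (0.24), Klrd1 (0.20) and Cd8a (0.19), and intestinal Vim had Capg (0.30) first and Ccl5 last (-0.27). This ranking by member was chosen after the data were seen.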

How the data were processed

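UMI counts per gene and cell barcode, deposited without normalization, were used. The labels name Cell Ranger and Trimmomatic and the builds mm8 and mm10. Per the methods of the authors, reads were trimmed, aligned to mm10 with Cell Ranger and counted. Groups follow the tissue label, 1 library each (small intestine, 5693395 UMIs, and spleen, 11103530 UMIs).

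Cells more than 3 MAD below the median in log UMIs or genes, or above it in mitochondrial share, and cells placed in G2/M by cyclone (scran 1.30.0, 1000 iterations), were left out (R 4.3.3). UMIs were summed per group of cells in Python 3.11.15 (numpy 2.4.6, scipy 1.17.1, pandas 2.3.3, matplotlib 3.10.9). Genes with at least 50 UMIs over both groups were ranked, a group at 0 being held at 3 UMIs, and called past 1.5-fold. The thinning depth is the 10th percentile of UMIs per kept cell of the shallower library. With 1 library per tissue no test was possible.

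The 10 members and the gene and marker lists were chosen with earlier results of these data known. The genes named are the members, listed family, partner and program genes with at least 50 UMIs (S100a5, S100a8, S100a9, Fpr1 and Fpr2 below that are named after their counts were seen), and the 10 genes most like the summed members. Doublets called by Scrublet (scanpy 1.11.5; 4 barcodes in each library) were kept, and left out as an alternative. On data simulated for the tissue comparison with 200 changed genes (67 of 68 changed 2-fold recovered at 1.5-fold), 2.36% of 8676 unchanged genes passed 1.5-fold. The simulated sums were Poisson counts with no spread between cells or libraries, so this share covers counting error only. Gene positions come from the GRCm38 annotation and promoters from RefSeq (GRCm38.p6).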

Additional observations from a re-analysis of the deposited data

Results flagged for a closer look

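For 3 members the difference between Ccl5-high and other cells pointed one way in the small intestine and the other way in the spleen, with both counting intervals clear of no difference. The intestinal and splenic log2 ratios were -1.49 and 0.85 for S100a4, -0.90 and 0.69 for S100a6, and -0.61 and 0.47 for Lgals1. With a cut of 5 Ccl5 UMIs per 10000 the intestinal S100a6 ratio was positive (1.39). Among intestinal cells with no Foxp3 UMI, S100a6 was at 277 CPM in Ccl5-high and 307 CPM in the other cells. Lgals1 was at 1175 and 1599 CPM there, within 1.5-fold, and S100a4 at 19.3 and 37.4 CPM, from 87 and 14 UMIs. For Lgals3 the difference between G2/M and G1 cells did so, at -0.96 and 0.23. With 1 library per tissue these differences between tissues were not tested.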

How the results depend on the processing

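Counts of members past 1.5-fold are out of 9. Called at 2-fold, the count was 3 in place of 6 for Ccl5-high against other cells in the small intestine. The share of all 6870 genes past the limit in either direction fell there from 31.5% to 12.2%. For the same comparison in the spleen the count was 0 in place of 4, beside 6.05% in place of 18.2% of 8117 genes. For Foxp3 UMI against none in the spleen it was 1 in place of 2, beside 3.99% in place of 13.7% of 8117 genes. With Ccl5-high from 40 UMIs per 10000, chosen after seeing the data, the splenic count was 2. Without the quality filter, also chosen after seeing the data, the splenic G2/M count was 0 in place of 2. The share over all genes was not taken under either of these settings. The share of intestinal cells with at least 5 members (22.9%) was 26.2% in another thinning, 6.42% at 1000 UMIs per cell, 48.2% as deposited and 2.44% for at least 7 members. The splenic share (44.6%) was 23.2%, 66.7% and 17.5% in the last 3 of these and 40.7% without cells with a Foxp3 UMI. The other 87 of 100 such values stayed close to the main one, a count within 1.5 times of it, a share within its interval and a median r within the SD of r over pairs. This rule for counts took in the intestinal Ccl5 comparison without cells with a Foxp3 UMI, where S100a6 and Lgals1 no longer passed 1.5-fold. Of 600 log2 ratios of single members under other settings, 491 stayed within the main counting error, 108 moved further and 1 changed direction, S100a6 for Ccl5-high against other intestinal cells, at 1.39 with a cut of 5 per 10000. The cause was not tested. With genes from 10 UMIs ranked, 50.1% in place of 45.5% of genes passed 1.5-fold between tissues.

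The limits are 1 library per tissue, counting error as the only error given, an intestinal library 1.46-fold shallower per cell, 28 intestinal cells with a Foxp3 UMI, and a Ccl5 cut that in the small intestine lies among cells that nearly all have Ccl5 UMIs. No paired analysis was possible because each tissue has 1 library and none of the results comes from a test.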
